A study of Mus musculus with 15 samples.

Results

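Costimulated effector CD8+ T cells were compared with naive CD8+ T cells of the same receptor, across all expressed genes and, for isoforms, across annotated transcripts. The comparison took 10 of the 15 libraries of the series, 5 Ag+Costim and 5 Naive, by group label alone. All cells carried the transgenic OT-I T cell receptor, which recognises the ovalbumin peptide SIINFEKL, on a C57BL/6J background, and per the study's methods the OT-I line lacks a recombination-activating gene and so makes no receptor chains of its own. Naive cells were purified from OT-I mice that received neither transfer nor treatment. Ag+Costim cells had been transferred into wild-type C57BL6/J mice, a host with its own lymphocytes, and the recipients were given antigen together with agonist antibodies to the TNF receptor family members OX40 and CD137 (4-1BB). These cells were sorted from spleen and lymph nodes, at day 4 per the labels and slightly earlier per the methods. Transfer, host, antigen and both antibodies thus changed together between the groups, and their parts in any difference cannot be told apart. In each group replicates 1, 2 and 5 were recorded as female and replicates 3 and 4 as male, and the study describes the 5 libraries as biological replicates.

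Naive CD8+ T cells recirculate through lymphoid tissue, rarely divide and depend on interleukin-7 and a set of quiescence-keeping transcription factors. After recognition of antigen they divide rapidly, raise glycolysis and protein synthesis, acquire cytotoxic granules and exchange lymph node homing receptors for receptors that lead to inflamed tissue. OX40 and CD137 appear on activated T cells and prolong expansion and survival.

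Total counts were 12883084 to 16496692 in Ag+Costim and 12112839 to 25280667 in Naive, from 24713497 to 54037294 sequenced single reads per library. The reads had 50 bases per the sequencing core's table, while the study's methods give a longer length for single reads. The share of sequenced reads counted in genes was 51.9% to 52.7% in Ag+Costim and 38.2% to 46.8% in Naive, and 23891 to 25410 genes had a count in Ag+Costim against 30152 to 33853 in Naive. Lane 3 held the Naive group together with Ag+Costim 4 and 5, while Ag+Costim 1 to 3 were sequenced on lane 2, so lane and group were largely confounded. The part of these differences in the results below was not tested, other than by the comparison within lane 3 and a fit with lane as a term.

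The Naive libraries did not form a tight group. On the first principal component of log2 CPM (counts relative to the scaled total of the library), which held 79.1% of the variance, Ag+Costim libraries lay at -69.3 to -52.6, Naive 1, 3 and 4 at 79.6 to 94.6, Naive 2 at 45.1 and Naive 5 at -15.5. Over the 845 genes that were at least doubled in Ag+Costim and reached a mean of 20 CPM, Naive 5 lay a median 77.5% of the way from the other Naive libraries to the Ag+Costim mean, and over the 859 genes that were at least halved it lay 56.9% of the way. The corresponding positions of Naive 2 were 27.7% and 7.17%, and Naive 1, 3 and 4 lay on the far side of their group mean, at -53.4% to -15.2%. Naive 5 was the highest Naive library for nearly every activation gene and the lowest for nearly every naive-state gene with values given here. Each gene list is therefore also given without Naive 5, within lane 3, and without any other single library that moved its count of calls by over 1.5 times.

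**Figure D1:**
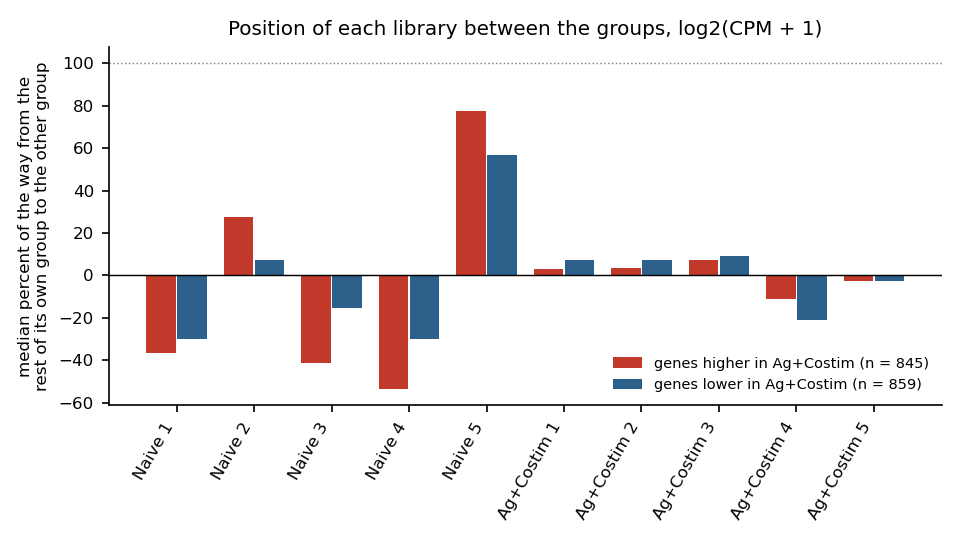
Position of each library between the groups. Each bar is the median, over genes that were at least doubled (red) or halved (blue) in Ag+Costim, of how far the library lay on the log2(CPM + 1) scale from the rest of its own group (0%) towards the mean of the other group (100%, dotted). Naive 5 reached 77.5% and 56.9%, while Ag+Costim libraries stayed between -21.1% and 9.15%.

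Of 17366 genes tested, 3648 were higher in Ag+Costim (21.0% of genes tested) and 4107 were lower (23.6%), by edgeR's quasi-likelihood test with p-values adjusted after Benjamini and Hochberg to a false discovery rate (FDR) under 0.05. With at least a doubling or halving required as well, 1458 genes were higher (8.40%) and 2634 were lower (15.2%). The levels of 7818 genes (45.0%) did not overlap between the groups. Without Naive 5 the counts were 4552 higher and 4593 lower, without Naive 2 and 5 they were 4535 and 4310, and within lane 3, with 2 Ag+Costim libraries, they were 2488 and 3672. A fit with lane as a term, in which only Ag+Costim libraries span both lanes, called 258 higher and 685 lower. Over every gene tested, the log2 fold change had a median of -0.08, or of -0.23 when libraries were scaled by their totals alone, with 3016 genes higher and 5102 lower. Gene groups below are read against the shares of 21.0% higher and 23.6% lower.

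**Figure D2:**
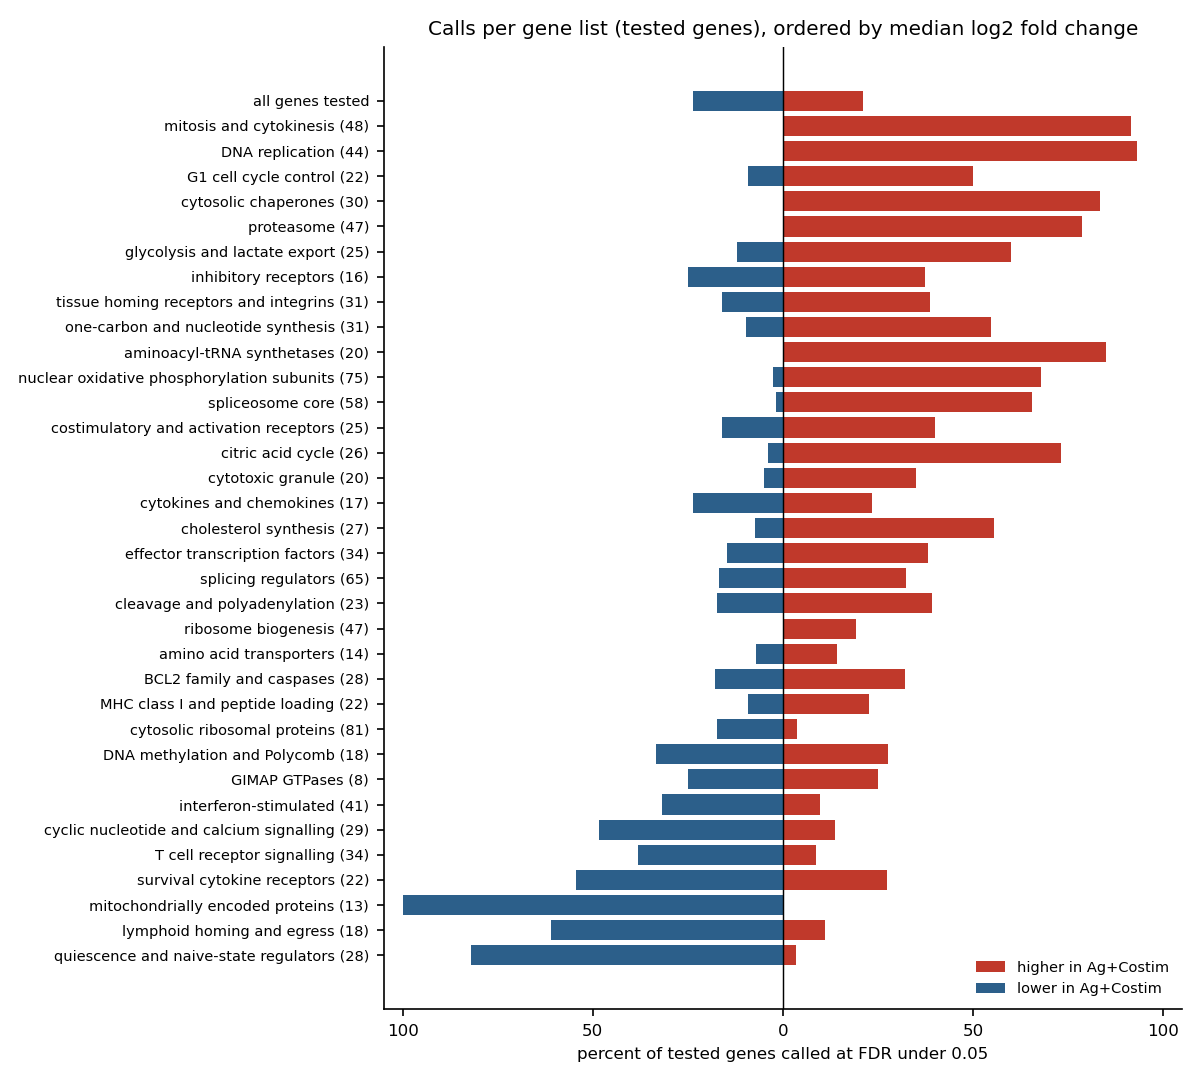
Share of each gene list called higher (red, right) or lower (blue, left) in Ag+Costim, in percent of the tested genes of the list (number in brackets), with all tested genes in the top bar. Lists run from the lowest median log2 fold change at the bottom to the highest at the top, where 91.7% of the mitosis genes and 93.2% of the DNA replication genes were higher and none was lower.

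Among non-overlapping protein-coding calls whose higher group averaged 20 CPM or more, the deepest falls were in genes nearly absent from Ag+Costim. Pde2a (ENSMUSG00000110195.1, chromosome 7:101421691-101512827, plus strand, GRCm38), a phosphodiesterase that degrades cyclic nucleotides, stood at 0.133, 0.650, 0.281, 0.130 and 0.139 CPM in Ag+Costim 1 to 5 and at 185, 168, 221, 188 and 94.1 CPM in Naive 1 to 5. All Ag+Costim libraries were near zero and all Naive libraries were far above them, with Naive 5 the lowest. Its log2 fold change was -9.34 ± 1.27 (SE; FDR 0.00115), a fitted value that leans on a prior count because Ag+Costim held only 18 reads of Pde2a in all, against 15070 in Naive.

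Ccr9, a chemokine receptor for homing to the gut, followed at 2.45, 0.813, 0.843, 1.30 and 1.04 CPM in Ag+Costim and 273, 159, 315, 321 and 36.3 CPM in Naive (log2 fold change -7.40 ± 1.08, FDR 0.00152). Itgae, the integrin chain CD103 that binds E-cadherin on epithelium, stood at 1.79, 0.813, 2.46, 1.62 and 1.53 CPM in Ag+Costim and at 89.9, 71.3, 182, 161 and 26.4 CPM in Naive (-6.0 ± 0.88, FDR 0.00155). Neither gene overlapped between the groups, and Naive 5 was again the lowest Naive library for both. The other 9 of the 12 genes with the deepest falls had log2 fold changes of -6.06 to -5.23. They were Xkrx, the amino acid transporter Slc6a19, 5830411N06Rik, the insulin-like growth factor binding protein Igfbp4, the adenylate deaminase Ampd1, Tmem108, the monocarboxylate transporter family member Slc16a5, the potassium channel Kcna2 and the sodium pump subunit Atp1b1. All 12 falls also passed the test without Naive 5 and within lane 3.

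Lymphoid homing genes fell broadly: 11 of 18 tested members were lower (61.1%), 2 were higher and the median log2 fold change was -0.95. Ccr7, the receptor for chemokines of the lymph node T zone, stood at 300, 218, 288, 217 and 270 CPM in Ag+Costim and at 1044, 798, 1303, 848 and 402 CPM in Naive. Ccr7 was lower in every Ag+Costim library than in any Naive library, yet it remained abundant, with a log2 fold change of -1.77 ± 0.31 (FDR 0.00298). S1pr1, the sphingosine phosphate receptor for exit from lymphoid organs, fell by 1.14 ± 0.21 (log2; FDR 0.00334). Klf2, its transcriptional activator, fell by 0.91 ± 0.18 (FDR 0.00403). Cnr2, a cannabinoid receptor, fell by 4.54 ± 0.63 (FDR 0.00128). The members that rose were the integrin chain Itgb7 (0.48 ± 0.11, FDR 0.00842) and the oxysterol receptor Gpr183 (0.43 ± 0.13, FDR 0.0201). The number lower was also 11 without Naive 5 and within lane 3, and it was 7 with lane as a term. The number higher was 4 without Naive 5, 1 without Naive 3 or Naive 4, and 0 within lane 3 and with a lane term.

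Quiescence and naive-state regulators had the lowest median of the 34 gene lists, at -1.36, with 23 of 28 lower (82.1%) and 1 higher. Lef1, a transcription factor of naive and stem-like T cells, stood at 195, 184, 211, 155 and 202 CPM in Ag+Costim and at 885, 672, 951, 770 and 312 CPM in Naive (-1.92 ± 0.31, FDR 0.00214). Its partner Tcf7 fell by 1.35 ± 0.33 (FDR 0.0092), the forkhead factor Foxo1 by 1.53 ± 0.31 (FDR 0.0049) and the repressor Bach2 by 2.83 ± 0.48 (FDR 0.00237). Tsc22d3, the glucocorticoid-induced leucine zipper, fell by 3.46 ± 0.45 (FDR 0.001), the anti-proliferative Btg1 by 2.72 ± 0.57 (FDR 0.00546) and the chromatin organiser Satb1 by 2.52 ± 0.33 (FDR 0.001). The member that rose was Myb (1.46 ± 0.40, FDR 0.0145), a transcription factor of proliferating progenitors. Id3 did not pass the test (0.05 ± 0.29, FDR 0.897), and its sign changed under several alternatives. Without Naive 5 the count was 22 lower and 1 higher, and within lane 3 it was 23 lower and none higher. Leaving out any single library left 19 to 22 lower, and the lane term left 12.

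Receptors for survival cytokines and for other cytokines, counted as one list, were split, with 12 of 22 lower (54.5%) and 6 higher. Il7r, the interleukin-7 receptor alpha chain, stood at 84.5, 98.3, 93.6, 71.2 and 71.7 CPM in Ag+Costim and at 731, 616, 734, 650 and 237 CPM in Naive. The Naive library nearest to Ag+Costim, Naive 5, was still more than doubled over the highest of them, and the log2 fold change was -2.82 ± 0.35 (FDR 0.000954). Ifngr2, the second chain of the interferon-gamma receptor, fell by 4.48 ± 0.52 (FDR 0.00059), Tgfbr3 by 3.64 ± 0.54 (FDR 0.00163) and Il6ra by 3.28 ± 0.59 (FDR 0.00327). Among the receptors that rose, Il2rb, the interleukin-2 and interleukin-15 receptor beta chain, stood at 1193, 1318, 1236, 1387 and 1257 CPM in Ag+Costim and at 430, 513, 452, 400 and 1016 CPM in Naive. Only Naive 5 came near the Ag+Costim range, and the log2 fold change was 1.19 ± 0.22 (FDR 0.00334). Il2ra, the chain that gives the interleukin-2 receptor high affinity, rose by 1.9 ± 0.72 (FDR 0.0436) with overlapping levels. Il12rb1 rose by 1.40 ± 0.43 (FDR 0.0216) and Il18rap by 0.98 ± 0.29 (FDR 0.0186). The list held 7 higher and 12 lower without Naive 5, 4 and 10 within lane 3, 1 and 6 with a lane term, and 3 and 10 without Naive 1 or Naive 4.

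Survival genes of the BCL2 family moved in both directions. Bcl2, the anti-apoptotic founder of the family (chromosome 1:106538178-106714274), stood at 48.1, 42.8, 31.3, 21.4 and 37.8 CPM in Ag+Costim and at 443, 258, 300, 363 and 123 CPM in Naive (-3.04 ± 0.43, FDR 0.0013). Bcl2a1b, an anti-apoptotic paralog on chromosome 9, stood at 91.6, 83.9, 96.3, 94.9 and 88.2 CPM in Ag+Costim and at 8.84, 33.4, 7.95, 8.47 and 47.9 CPM in Naive (2.1 ± 0.46, FDR 0.00655). The Bcl2a1 genes are near-identical copies, so the split of reads among Bcl2a1a, Bcl2a1b and Bcl2a1d is uncertain, although all 3 rose. The pro-apoptotic BH3-only genes Bbc3 (-2.78 ± 0.32, FDR 0.00059) and Bcl2l11 (-1.45 ± 0.47, FDR 0.026) and the anti-apoptotic Mcl1 (-0.82 ± 0.23, FDR 0.0163) fell. Over all 28 tested BCL2 family and caspase genes 9 were higher (32.1%) and 5 lower (17.9%). The median was 0.02, and with library totals alone the median was -0.14. The counts were 12 higher and 7 lower without Naive 5, 3 and 6 within lane 3, and 3 and 3 with a lane term, and 3 were lower without Ag+Costim 4 or 5 or Naive 1, 3 or 4.

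**Figure D3:**
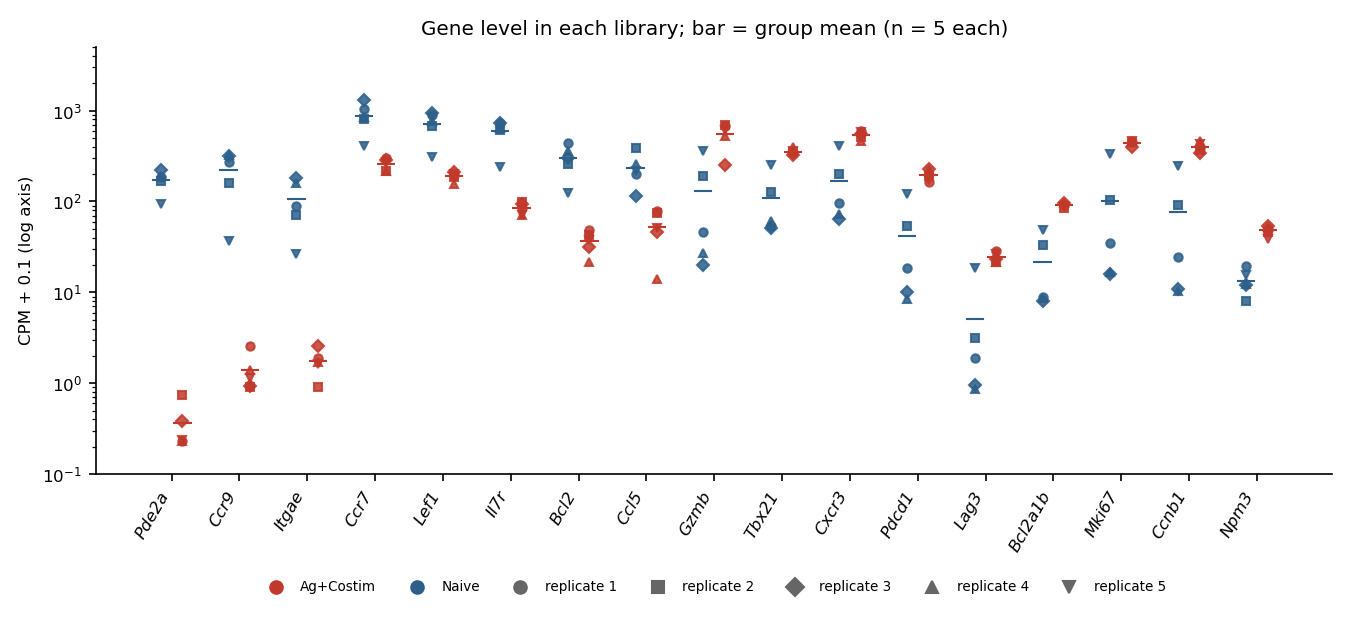
Level of single genes in each library, as CPM + 0.1 on a log axis. Points are libraries (red Ag+Costim, blue Naive, marker shape the replicate number) and bars are group means of 5 libraries. Naive 5 (downward triangle) lies closest to Ag+Costim for most genes, for example at 244 CPM of Ccnb1 against 10.2 to 91.7 CPM in the other Naive libraries, while Pde2a stays at or below 0.650 CPM in every Ag+Costim library.

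Cell division genes had the highest median of the 34 gene lists. Of 48 tested mitosis and cytokinesis genes 44 were higher (91.7%) and none was lower, with a median log2 fold change of 2.13. Ccnb1, the cyclin that drives entry into mitosis, stood at 388, 372, 340, 465 and 429 CPM in Ag+Costim and at 24.2, 91.7, 10.7, 10.2 and 244 CPM in Naive. Mki67, a nuclear protein of cycling cells, stood at 453, 451, 399, 460 and 460 CPM in Ag+Costim and at 34.7, 104, 15.8, 16.6 and 334 CPM in Naive. Neither gene overlapped between the groups, but Naive 5 lay over 2 times above the next Naive library for both. The log2 fold changes were 2.39 ± 0.87 for Ccnb1 (FDR 0.0391) and 2.14 ± 0.72 for Mki67 (FDR 0.0291), and without Naive 5 they were 3.55 and 3.39. Kif2c, a microtubule depolymerase of the kinetochore, rose by 2.37 ± 0.87 (FDR 0.0402), the kinetochore protein Nuf2 by 2.34 ± 0.87 (FDR 0.0428) and the cytokinesis kinesin Kif20a by 2.32 ± 0.82 (FDR 0.035). Without Naive 5, 47 of 48 were higher and the median was 3.27. Within lane 3 the median was 2.23, but only 2 of the 48 passed the test, and none did with lane as a term. The count also depended on single libraries, since leaving out Naive 1, 2, 3 or 4 gave 4, 16, 8 or 6 higher, and leaving out Ag+Costim 1, 3, 4 or 5 gave 17, 20, 11 or 12.

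DNA replication genes moved with them, with 41 of 44 higher (93.2%), none lower and a median of 1.67. Pclaf, a factor that binds the sliding clamp PCNA, was among the 12 highest rises of protein-coding calls that averaged at least 20 CPM and did not overlap, at 743, 770, 799, 883 and 848 CPM in Ag+Costim and 56.4, 215, 23.4, 25.8 and 476 CPM in Naive (2.34 ± 0.83, FDR 0.0357). The ribonucleotide reductase subunit Rrm2 rose by 2.24 ± 0.87 (FDR 0.0487), the origin recognition subunit Orc1 by 2.23 ± 0.74 (FDR 0.0283), thymidine kinase Tk1 by 2.19 ± 0.82 (FDR 0.0427) and the loader Cdc6 by 2.15 ± 0.83 (FDR 0.0487). The members that did not pass were Mcm10, Pole and Chaf1a. Without Naive 5 all 44 were higher, and within lane 3 the count was 25. The linker histone Hist1h1b (2.53 ± 0.81, FDR 0.0249), Fam129b (2.47 ± 0.73, FDR 0.019), Mtfr2 (2.39 ± 0.85, FDR 0.0355), Fam83d (2.37 ± 0.73, FDR 0.0221), the nuclear lamin Lmnb1 (2.34 ± 0.67, FDR 0.0167), Sapcd2 (2.33 ± 0.75, FDR 0.0249) and the helicase Pif1 (2.30 ± 0.69, FDR 0.0195) completed these 12. The list held 7 higher genes without Naive 1 or Naive 4, 8 without Naive 3, 14 without Ag+Costim 4, 19 without Ag+Costim 5 and 1 with a lane term.

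Control of the G1 phase was more mixed, with 11 of 22 higher (50%) and 2 lower. Ccne2, an S-phase cyclin, rose by 2.19 ± 0.72 (FDR 0.0276) and its kinase Cdk2 by 1.67 ± 0.41 (FDR 0.00948). The kinase inhibitors Cdkn1a (2.06 ± 0.80, FDR 0.0495) and Cdkn2c (1.62 ± 0.47, FDR 0.017) also rose, while the inhibitor Cdkn1b fell by 1.33 ± 0.42 (FDR 0.0247) and the D-type cyclin Ccnd2 by 1.18 ± 0.37 (FDR 0.023). Myc, the growth-promoting transcription factor, was lower in Ag+Costim at 84.9, 91.2, 86.6, 87.1 and 99.0 CPM against 154, 96.4, 160, 147 and 82.8 CPM in Naive. The groups overlapped through Naive 2 and 5, and the log2 fold change was -0.52 ± 0.17 (FDR 0.0264), -0.64 without Naive 5 and -0.49 within lane 3, where it did not pass (FDR 0.225). For the G1 list 17 were higher without Naive 5, 5 within lane 3, 7 without Naive 1, 3 or 4, and none with a lane term. None was lower without Naive 1, Naive 4 or Ag+Costim 2, and 1 was without Naive 3 or Ag+Costim 4.

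Genes of the cytotoxic granule rose less uniformly, with 7 of 20 tested higher (35%), 1 lower and a median of 0.51. Gzmb, the granule protease granzyme B, stood at 672, 701, 253, 523 and 616 CPM in Ag+Costim and at 46.3, 189, 19.9, 26.8 and 363 CPM in Naive. Ag+Costim 3 fell below Naive 5, and the log2 fold change of 2.1 ± 1.04 did not pass (FDR 0.106), whereas without Naive 5 it was 2.97 and passed (FDR 0.038). Gzma did not pass either (1.17 ± 0.81, FDR 0.236). Prf1, the pore-forming perforin, stood at 75.0, 75.3, 52.3, 45.4 and 76.0 CPM in Ag+Costim and at 75.8, 71.8, 79.8, 75.1 and 69.5 CPM in Naive (-0.20 ± 0.14, FDR 0.244). Its level was thus already of the same order in naive cells, and Ag+Costim 3 and 4 were the lowest libraries. The granzyme inhibitors Serpinb9 (1.94 ± 0.73, FDR 0.0431) and Serpinb6b (1.81 ± 0.47, FDR 0.0124), the granule fusion protein Stx11 (1.75 ± 0.57, FDR 0.0257) and the death ligand Fasl (1.19 ± 0.42, FDR 0.0351) rose. Tnfsf10, the death ligand TRAIL, fell by 0.82 ± 0.21 (FDR 0.0115). Without Naive 5, 11 of the 20 were higher, and within lane 3 none was. The number higher was 4 without Naive 3, 3 without Naive 1 or Naive 4, and 0 with a lane term.

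Cytokine genes went both ways, 4 of 17 higher and 4 lower (23.5% each), near the 21.0% and 23.6% of all genes tested. Ifng, interferon gamma, stood at 5.63, 5.36, 6.75, 5.71 and 6.12 CPM in Ag+Costim and at 1.54, 2.05, 0.671, 1.67 and 5.32 CPM in Naive (1.40 ± 0.45, FDR 0.0244). Its level was low in these unrestimulated cells, and Naive 5 lay just under the Ag+Costim range. Ccl5, a chemokine of memory-type CD8+ T cells, moved the other way, at 77.5, 75.2, 45.7, 14.1 and 51.0 CPM in Ag+Costim and 200, 389, 115, 258 and 216 CPM in Naive (-2.16 ± 0.40, FDR 0.00347). For Ccl5 the highest Naive library was Naive 2 and Naive 5 was in the middle of its group, and the fall held within lane 3 (-2.87, FDR 0.027). The chemokine Xcl1 rose by 1.85 ± 0.57 (FDR 0.0218), Tnfsf11 by 1.81 ± 0.60 (FDR 0.0286) and Tgfb1 by 0.61 ± 0.16 (FDR 0.013). Tnfsf8 (-1.71 ± 0.52, FDR 0.0211), lymphotoxin beta (Ltb, -1.06 ± 0.30, FDR 0.0171) and lymphotoxin alpha (Lta, -0.73 ± 0.29, FDR 0.0498) fell. Without Naive 5 the list held 6 higher and 5 lower, within lane 3 it held 1 and 4, with a lane term 0 and 1, without Naive 1 it held 1 and 2, without Naive 4 it held 1 and 3, and without Ag+Costim 4 it held 3 and 2.

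Among effector transcription factors 13 of 34 were higher (38.2%) and 5 lower. Tbx21, the factor T-bet that drives type 1 effector genes, stood at 337, 347, 322, 397 and 354 CPM in Ag+Costim and at 54.0, 128, 50.6, 60.6 and 254 CPM in Naive (1.69 ± 0.48, FDR 0.0161). Irf8 rose by 1.94 ± 0.54 (FDR 0.0158), Bhlhe40 by 1.86 ± 0.65 (FDR 0.0338) and Id2 by 1.22 ± 0.44 (FDR 0.0371). Nr4a2 rose by 1.79 ± 0.54 (FDR 0.0196) while its family member Nr4a1, an early target of receptor signalling, fell by 1.47 ± 0.42 (FDR 0.0172) together with Egr1 (-2.41 ± 0.58, FDR 0.00881). Eomes (1.04 ± 0.48, FDR 0.0867), Prdm1 (1.16 ± 0.76, FDR 0.212) and Zeb2 (-1.25 ± 0.65, FDR 0.122), markers of the choice between effector and memory fate, did not pass, nor did the terminal effector marker Klrg1 (0.31 ± 0.81, FDR 0.764). Without Naive 5, 16 were higher and 5 lower, and Eomes (1.61, FDR 0.00779) and Prdm1 (2.14, FDR 0.0261) passed. Within lane 3 only 2 were higher and 6 were lower. The number higher was 5 without Naive 4, 7 without Naive 1 or Ag+Costim 3, 8 without Ag+Costim 1, 4 or 5, and 1 with a lane term.

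Costimulatory and activation receptors rose in 10 of 25 cases (40%) and fell in 4. Tnfrsf9, which encodes the CD137 receptor that the antibody engaged, stood at 83.4, 103, 88.8, 104 and 99.0 CPM in Ag+Costim and at 9.86, 29.3, 8.39, 7.85 and 72.5 CPM in Naive (1.91 ± 0.55, FDR 0.0177). Tnfrsf4, which encodes OX40, stood at 4.31, 4.23, 8.93, 8.63 and 5.63 CPM in Ag+Costim and at 2.11, 2.60, 1.08, 2.64 and 4.79 CPM in Naive. Naive 5 overlapped Ag+Costim 1 and 2, and the difference of 1.27 ± 0.50 did not pass (FDR 0.0506), but passed without Naive 5 (1.60, FDR 0.0204) and within lane 3 (1.43, FDR 0.0488). Cd44, the adhesion receptor used to mark antigen-experienced cells, rose by 0.83 ± 0.31 (FDR 0.041) with Naive 5, at 71.1 CPM, above all Ag+Costim libraries, which lay at 51.7 to 70.3 CPM. Cd69, an early activation and retention marker, stood at 50.1, 40.5, 40.6, 25.4 and 38.5 CPM in Ag+Costim and at 184, 147, 261, 231 and 63.1 CPM in Naive (-2.18 ± 0.36, FDR 0.00235). The NK-type receptors Klrc1 (1.91 ± 0.64, FDR 0.0288) and Klrk1 (1.5 ± 0.48, FDR 0.025) and the SLAM receptor Slamf7 (1.71 ± 0.52, FDR 0.0203) rose. Counts of this list were 13 higher and 6 lower without Naive 5, 5 and 5 within lane 3, 6 and 3 without Naive 1 or Naive 4, and 1 and 1 with a lane term.

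Inhibitory receptors were split by member, 6 of 16 higher (37.5%) and 4 lower. Pdcd1, which encodes PD-1, stood at 164, 191, 229, 223 and 172 CPM in Ag+Costim and at 18.4, 53.4, 9.88, 8.27 and 119 CPM in Naive (2.23 ± 0.59, FDR 0.0126). Lag3 stood at 28.2, 21.4, 23.4, 21.5 and 26.1 CPM in Ag+Costim and at 1.79, 3.08, 0.858, 0.764 and 18.3 CPM in Naive (2.29 ± 0.80, FDR 0.0338). Neither overlapped, and without Naive 5 the log2 fold changes were 3.13 and 3.93. Ctla4 rose by 2.18 ± 0.73 (FDR 0.0289) and Tigit by 2.05 ± 0.61 (FDR 0.0193), whereas Pecam1 (-1.27 ± 0.47, FDR 0.0412), Cd101 (-1.22 ± 0.36, FDR 0.0186), Cd72 (-0.99 ± 0.23, FDR 0.00866) and Cd96 (-0.79 ± 0.23, FDR 0.0192) fell. Havcr2, Btla, Cd200, Entpd1, Nt5e and Ceacam1 did not pass. Over the list 9 were higher and 4 lower without Naive 5, 3 and 4 within lane 3, 2 and 3 without Naive 1, 3 and 3 without Naive 4 or Ag+Costim 1, 6 and 2 without Ag+Costim 2, 4 and 2 without Naive 3, and 1 and 1 with a lane term.

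The list of tissue homing receptors and integrins, which also held a galectin, an annexin and S100 proteins, rose in 12 of 31 cases (38.7%) and fell in 5. Cxcr3, the receptor for interferon-induced chemokines, stood at 603, 516, 549, 462 and 585 CPM in Ag+Costim and at 95.4, 200, 63.7, 73.3 and 403 CPM in Naive (1.70 ± 0.43, FDR 0.0112). The galectin Lgals3 rose by 2.14 ± 0.72 (FDR 0.0297), the membrane-binding annexin Anxa2 by 1.92 ± 0.63 (FDR 0.0269) and the calcium-binding S100a4 by 1.92 ± 0.72 (FDR 0.0433) and S100a6 by 1.80 ± 0.66 (FDR 0.0388). These members are neither homing receptors nor integrins. S1pr5 (-2.85 ± 0.79, FDR 0.015), Ccr4 (-2.77 ± 1.05, FDR 0.045) and Cx3cr1 (-1.54 ± 0.46, FDR 0.0195) fell from low levels. Within lane 3, 2 were higher and 3 lower, and Cxcr3 did not pass (1.65, FDR 0.0794). Without Naive 5, 17 were higher and 6 lower, and 4 were higher without Naive 1 or Naive 4, 5 without Naive 3 and 1 with a lane term. The number lower was 3 without Ag+Costim 1, 3 or 5 or Naive 1 or 3, and 2 without Naive 4.

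Signalling genes downstream of the T cell receptor were more often lower, in 13 of 34 cases (38.2%), than higher, in 3. The Tec family kinases Txk (-1.50 ± 0.21, FDR 0.00121) and Tec (-1.43 ± 0.20, FDR 0.0013) fell, as did the Ras activator Rasgrp1 (-1.86 ± 0.25, FDR 0.00115). The adaptor Sh2d2a (0.69 ± 0.15, FDR 0.00611), the phosphatase Ptpn22 (0.25 ± 0.09, FDR 0.0428) and the adaptor Lcp2 (0.25 ± 0.09, FDR 0.0432) rose. Genes of cyclic nucleotide and calcium signalling fell in 14 of 29 cases (48.3%) and rose in 4. Besides Pde2a, the phosphodiesterases Pde4b (-2.21 ± 0.41, FDR 0.00351) and Pde7a (-1.44 ± 0.34, FDR 0.00819) and the calcium release channel Itpr2 (-2.75 ± 0.57, FDR 0.00532) fell, while Pde4a (1.40 ± 0.53, FDR 0.0455) and the adenosine receptor Adora2a (1.37 ± 0.25, FDR 0.00334) rose. The receptor signalling list held 3 higher and 17 lower without Naive 5, 1 and 10 within lane 3, 0 and 6 with a lane term, and 1 or 2 higher without any other single library. The cyclic nucleotide list held 6 higher and 12 lower without Naive 5, 1 and 13 within lane 3, 1 and 4 with a lane term, and 1 and 2 higher without Naive 1 and Naive 4.

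Energy metabolism genes were mostly higher in Ag+Costim, except for the genes of the mitochondrial genome. In glycolysis and lactate export 15 of 25 were higher (60%) and 3 lower. Ldha, the lactate dehydrogenase of glycolytic cells, stood at 2708, 2622, 2446, 3340 and 2724 CPM in Ag+Costim and at 713, 1216, 937, 716 and 1950 CPM in Naive (1.32 ± 0.39, FDR 0.0191). Tpi1 (1.76 ± 0.54, FDR 0.0217), hexokinase Hk2 (1.71 ± 0.60, FDR 0.0345) and Pgk1 (1.48 ± 0.42, FDR 0.0164) rose, the glucose transporter Slc2a1 rose only by 0.39 ± 0.15 (FDR 0.0443), and Hk2 levels overlapped. The members that fell were Ldhb (-1.23 ± 0.36, FDR 0.0177), Pdk2 (-3.86 ± 0.89, FDR 0.00788) and Pdk1, kinases that restrain entry of pyruvate into mitochondria. Pdk1 stood at 40.9, 40.0, 46.7, 37.2 and 41.6 CPM in Ag+Costim and at 160, 98.4, 183, 157 and 78.2 CPM in Naive (-1.71 ± 0.26, FDR 0.00169). Glycolytic counts were 16 higher and 3 lower without Naive 5, 11 and 3 within lane 3, 8 and 3 without Naive 1, 7 and 3 without Naive 4, and 0 and 1 with a lane term.

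In the citric acid cycle 19 of 26 genes were higher (73.1%), among them Fh1 (1.20 ± 0.33, FDR 0.0145) and Idh3a (1.17 ± 0.37, FDR 0.0236), and 1 was lower, Idh2 (-1.21 ± 0.20, FDR 0.00237). The number higher was 19 without Naive 5, 17 within lane 3, 11 without Naive 4 and 0 with a lane term. Of the nuclear genes for oxidative phosphorylation 51 of 75 were higher (68%) and 2 lower, with a median of 0.69. Atp5b, the catalytic subunit of ATP synthase, stood at 2576, 2589, 2546, 3004 and 2735 CPM in Ag+Costim and at 1047, 1443, 1272, 963 and 2039 CPM in Naive (0.99 ± 0.31, FDR 0.0226). All 13 mitochondrially encoded proteins were lower, with a median of -0.89. mt-Nd4, a subunit of complex I from the mitochondrial genome, stood at 422, 414, 472, 400 and 436 CPM in Ag+Costim and at 1039, 1688, 616, 1071 and 708 CPM in Naive (-1.26 ± 0.22, FDR 0.00283). Here Naive 3 was the lowest Naive library and Naive 2 the highest. Without Naive 5 the counts were 57 nuclear genes higher and all 13 mitochondrial genes lower, and within lane 3 they were 54 and 4. The nuclear count was 15, 19 or 12 when Naive 1, 3 or 4 was left out, 31 without Ag+Costim 4, 33 without Ag+Costim 1 or 5, and 0 with a lane term, whereas all 13 mitochondrial genes were lower without any single library and 2 were with a lane term. The share of reads counted also differed between the groups, and its part in the fall of mitochondrial transcripts was not tested.

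Biosynthetic pathway genes were also more often higher than lower. In one-carbon and nucleotide synthesis 17 of 31 were higher (54.8%), including the serine synthesis enzyme Psat1 (1.79 ± 0.52, FDR 0.0173), mitochondrial Mthfd2 (1.55 ± 0.34, FDR 0.00662), Shmt1 (1.5 ± 0.47, FDR 0.024) and the uridine synthesis enzyme Umps (1.42 ± 0.41, FDR 0.017), and 3 were lower. In cholesterol synthesis and its regulation 15 of 27 were higher (55.6%), including the squalene epoxidase Sqle (1.57 ± 0.47, FDR 0.0202) and the isomerase Idi1 (1.54 ± 0.50, FDR 0.0252). The 2 lower members export cholesterol instead: Abcg1 fell by 1.88 ± 0.47 (FDR 0.0104), and Abca1 stood at 0.729, 0.325, 0.422, 0.389 and 0.765 CPM in Ag+Costim and at 14.5, 6.94, 16.6, 12.5 and 5.85 CPM in Naive (-4.39 ± 0.85, FDR 0.00397). On the list of amino acid transporters 2 of 14 genes were higher (14.3%) and 1 was lower (7.14%). Those higher were Slc43a3 (2.14 ± 0.74, FDR 0.0328), a transporter of purine nucleobases rather than amino acids, and the cystine transporter Slc7a11 (1.15 ± 0.40, FDR 0.0341). Slc38a2 was lower (-0.44 ± 0.14, FDR 0.0224). The median of the list changed sign with the scaling, from 0.13 to -0.03 with library totals alone. One-carbon genes higher numbered 22 without Naive 5 and within lane 3, 6 without Naive 1 or Naive 4, 7 without Naive 3 or Ag+Costim 4, 11 without Ag+Costim 5 and 1 with a lane term. Cholesterol genes higher numbered 14 without Naive 5, 7 within lane 3, 9 without Naive 1 or Naive 4 and 0 with a lane term. Amino acid transporters had 5 higher and 2 lower without Naive 5, 1 and 0 within lane 3, and 0 to 3 higher without any other library.

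Protein production and turnover genes rose with small log2 fold changes. Of the aminoacyl-tRNA synthetases, which charge tRNAs for translation, 17 of 20 were higher (85%) and none lower, including Gars (1.05 ± 0.30, FDR 0.0163) and Aars (1.04 ± 0.28, FDR 0.0134). Of the proteasome 37 of 47 were higher (78.7%) and none lower, including Psmd1 (1.18 ± 0.32, FDR 0.014) and Psmd13 (1.13 ± 0.28, FDR 0.00952). Of the chaperones 25 of 30 were higher (83.3%) and none lower, including Hsp90aa1 (1.41 ± 0.48, FDR 0.0314), Hspd1 (1.37 ± 0.39, FDR 0.0166) and Hsp90b1 (1.28 ± 0.32, FDR 0.0111). In the order given, 18, 37 and 27 were higher without Naive 5 and 18, 36 and 26 within lane 3, but 11, 24 and 10 without Naive 1 or without Naive 4, and 1, 2 and 2 with a lane term. Without Ag+Costim 4 the synthetases numbered 11 and the chaperones 10, and the chaperones numbered 12 without Naive 3 and 15 without Ag+Costim 5.

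Of the ribosome biogenesis genes 9 of 47 were higher (19.1%), near the 21.0% of all genes tested, and none was lower. Npm3, a nucleolar histone chaperone on chromosome 19, had the largest rise of them, at 49.2, 46.1, 53.3, 52.5 and 38.7 CPM in Ag+Costim and 19.2, 7.96, 11.9, 12.2 and 15.3 CPM in Naive (1.85 ± 0.26, FDR 0.00125). Here Naive 5 was within the range of the other Naive libraries. The box C/D snoRNP protein Nop58 rose by 0.91 ± 0.18 (FDR 0.00436). This count depended on the fit, with 16 higher within lane 3, 13 without Naive 5, 20 higher and 2 lower with the 10 libraries alone, 8 and 3 without Naive 2 and 5, 7 and 3 with library totals, 3 higher with a lane term, 4 without Ag+Costim 4, Naive 1 or Naive 4, and 5 without Ag+Costim 5 or Naive 3. Of 81 cytosolic ribosomal proteins 3 were higher (3.7%) and 14 lower (17.3%), with a median of -0.08. The split moved with the scaling and the libraries, to 1 higher and 31 lower with library totals, 12 and 27 with the 10 libraries alone, 6 and 6 within lane 3, 3 and 19 without Naive 5, 2 and 2 without Ag+Costim 2, and 0 and 1 with a lane term. Without any other single library 0 or 1 were higher and 6 to 10 lower. Rps27 fell by 1.52 ± 0.23 (FDR 0.00173) and its paralog Rps27l rose by 1.21 ± 0.41 (FDR 0.0287). These proteins have many near-identical pseudogenes, and reads shared with them make single members uncertain.

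In RNA processing, of 58 core spliceosome genes 38 were higher (65.5%) and 1 was lower, Ddx23 (-0.94 ± 0.25, FDR 0.0141), with Snrpd1 (1.33 ± 0.43, FDR 0.0264), Lsm2 (1.07 ± 0.39, FDR 0.0408) and Prpf19 (1.03 ± 0.24, FDR 0.00828) among those that rose. Splicing regulators were divided, with 21 of 65 higher (32.3%) and 11 lower (16.9%). Hnrnpll, a regulator of CD45 exon skipping in activated T cells, stood at 134, 130, 138, 155 and 155 CPM in Ag+Costim and at 38.7, 68.2, 45.0, 36.3 and 118 CPM in Naive (1.22 ± 0.29, FDR 0.00893). Mbnl3 (1.62 ± 0.44, FDR 0.0145), Hnrnpa1 (1.22 ± 0.37, FDR 0.0206) and Tra2b (1.04 ± 0.15, FDR 0.00162) also rose. Clk1, a kinase of SR splicing factors whose transcripts often keep introns, stood at 137, 125, 110, 103 and 100 CPM in Ag+Costim and at 513, 351, 469, 544 and 160 CPM in Naive (-1.83 ± 0.41, FDR 0.0073). Clk4 (-1.07 ± 0.27, FDR 0.0118), Srsf5 (-1.0 ± 0.22, FDR 0.00598) and Mbnl2 (-1.41 ± 0.35, FDR 0.0101) fell too. Tardbp, the RNA-binding protein TDP-43, stood at 153, 160, 143, 181 and 168 CPM in Ag+Costim and at 148, 151, 125, 163 and 177 CPM in Naive. Its groups overlapped throughout, the difference did not pass (0.08 ± 0.13, FDR 0.65), and it was -0.08 with library totals alone. In cleavage and polyadenylation 9 of 23 were higher (39.1%), including Nudt21 (1.00 ± 0.27, FDR 0.0143) and Cpsf2 (0.96 ± 0.26, FDR 0.0138), and 4 lower (17.4%), including Pcf11 (-0.91 ± 0.25, FDR 0.0154). The spliceosome list held 42 higher and 3 lower without Naive 5, 38 and 0 within lane 3, 14 higher without Naive 1 or Naive 4, 19 without Naive 3 or Ag+Costim 4, 21 without Ag+Costim 5 and 1 with a lane term. Splicing regulators had 30 higher and 11 lower without Naive 5, 17 and 9 within lane 3, 10 to 13 higher without Ag+Costim 4 or 5 or Naive 1, 3 or 4, 7 lower without Ag+Costim 2, and 3 and 0 with a lane term. Polyadenylation genes had 9 higher and 5 lower without Naive 5, 4 and 2 within lane 3, 4 higher without Ag+Costim 4, Naive 1 or Naive 4, 5 without Ag+Costim 1 or 5, and 1 and 0 with a lane term.

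Of 18 DNA methylation and Polycomb genes 5 were higher (27.8%) and 6 lower (33.3%), against 21.0% and 23.6% of all genes tested. Ezh2, the Polycomb methyltransferase of histone H3 lysine 27, stood at 254, 251, 260, 277 and 269 CPM in Ag+Costim and at 44.6, 80.7, 40.0, 37.8 and 183 CPM in Naive (1.76 ± 0.40, FDR 0.00708). Eed, its partner, rose by 0.75 ± 0.27 (FDR 0.0361) and the maintenance methyltransferase Dnmt1 by 1.16 ± 0.38 (FDR 0.0274). Tet1, an enzyme that oxidises methylated cytosine, stood at 2.19, 2.19, 2.18, 2.60 and 1.95 CPM in Ag+Costim and at 26.1, 15.1, 21.7, 23.8 and 6.58 CPM in Naive (-3.06 ± 0.84, FDR 0.0143). Tet3 fell by 1.59 ± 0.39 (FDR 0.01), and the demethylase Kdm6b, which opposes Ezh2, by 2.28 ± 0.54 (FDR 0.00874). The list held 7 higher and 6 lower without Naive 5, 2 and 6 within lane 3, 1 and 6 without Naive 1, 2 or 3, 2 and 6 without Naive 4 or Ag+Costim 3, 4 or 5, and 1 and 0 with a lane term.

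Interferon-stimulated genes were lower in 13 of 41 cases (31.7%) and higher in 4. Oas2 fell by 3.34 ± 0.89 (FDR 0.0131), Oasl1 by 2.38 ± 0.52 (FDR 0.00655) and Ifit1 by 2.01 ± 0.63 (FDR 0.0233), while Gbp3 (1.03 ± 0.22, FDR 0.00598) and Cxcl10 (1.40 ± 0.44, FDR 0.0236) rose. The counts were 5 higher and 14 lower without Naive 5, 0 and 16 within lane 3, and 0 and 5 with a lane term. The number lower was 4 without Naive 4, 5 without Ag+Costim 4, 6 without Ag+Costim 5 or Naive 3, and 7 without Ag+Costim 1 or 2 or Naive 1, and 2 were higher without Naive 1, 3 or 4. In MHC class I antigen presentation 5 of 22 were higher (22.7%), near the 21.0% of all genes tested, and 2 were lower. Those higher were led by the chaperone Pdia3 (1.08 ± 0.29, FDR 0.0133) and included the immunoproteasome subunits Psmb9 (0.88 ± 0.20, FDR 0.00724) and Psmb8 (0.75 ± 0.18, FDR 0.00917). The lower genes were H2-K1 (-0.54 ± 0.19, FDR 0.0353) and H2-Q7 (-0.46 ± 0.12, FDR 0.0117). MHC class I genes are close paralogs, so their single values are uncertain. Of 8 GIMAP GTPases, lymphocyte survival proteins, 2 were higher and 2 lower (25% each), near the 21.0% and 23.6% of all genes tested. Without Naive 5 the presentation list held 5 higher and 4 lower, within lane 3 it held 3 and 1, and without any other single library 0 to 2 were lower. GIMAP genes were split 2 and 2 without Naive 5 and 0 and 3 within lane 3, with 0 to 2 lower without any other single library.

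The cell type labels were checked against markers. All 8 CD8 T cell markers were tested and abundant in both groups, with a summed level of 5925 to 7051 CPM in Ag+Costim and 6466 to 9870 CPM in Naive. Cd8b1 (-0.72 ± 0.16, FDR 0.0061), Cd3g (-0.61 ± 0.21, FDR 0.0311), Cd2 (-0.55 ± 0.18, FDR 0.0276) and Cd8a (-0.54 ± 0.19, FDR 0.032) were lower in Ag+Costim, while 6 of the 8 were lower without Naive 5, 2 within lane 3, 2 without Ag+Costim 1, and 1 without Ag+Costim 2, 4 or 5 or Naive 1, 3 or 4. Sorted bulk RNA cannot tell less RNA per cell from fewer cells of a type. Cd4 was below 1 CPM on average in both groups. Of 6 tested plasma cell markers 4 were higher in Ag+Costim, with means of 64.3 ± 20.4 (SD) against 4.28 ± 5.22 CPM for Igkc, 11.4 ± 5.48 against 0.329 ± 0.351 CPM for Jchain, 5.31 ± 3.35 CPM against 0 in all Naive libraries for Igha, and 124 ± 10.7 against 75.0 ± 14.7 CPM for Xbp1, which T cells also express. The summed level of this list was 693 to 940 CPM in Ag+Costim and 662 to 1024 CPM in Naive, mostly Ighm, and 4 were higher without any single library and within lane 3. Of 7 B cell markers 1 was higher, Cd22, and the sum was 52.8 to 104 CPM against 38.3 to 78.5 CPM. Of 7 myeloid markers S100a8 and S100a9 were called lower, and their Naive level came from Naive 5, whose myeloid sum was 1019 CPM against at most 177 CPM in any other Naive library and 68.9 to 167 CPM in Ag+Costim. Without Naive 5 neither was called lower and 3 myeloid markers were higher, and no myeloid marker was called within lane 3 or without Ag+Costim 1, 4 or 5. Erythroid markers summed to 3.58 to 29.2 CPM in Ag+Costim and 42.6 to 121 CPM in Naive, with none called, although all 4 were lower within lane 3. Of 4 NK cell markers Klrb1c (-4.19 ± 0.92, FDR 0.00661) and Ncr1 (-3.67 ± 0.96, FDR 0.0125) were lower. The summed level of this list did not fall, at 54.9 to 95.7 CPM in Ag+Costim and 28.2 to 102 CPM in Naive. Eomes, also expressed by CD8+ T cells, was on the list and was called higher without Naive 5. Of 3 tested CD4 T cell markers Cd40lg was lower (-2.62 ± 0.61, FDR 0.00819), and no platelet marker passed the filter. The part of these cells in the other results was not tested.

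Isoform use was compared as the share of a gene's counts that each annotated transcript held. Of 7501 genes with at least 2 tested transcripts, 73 were called (0.973%), which required a gene-level FDR under 0.05 in edgeR's diffSpliceDGE and a transcript with its own FDR under 0.05 and a share change of at least 10 percentage points. In 28 of the 73 a called transcript also did not overlap between the groups. Counted per transcript and with no call or minimum change required, 14.2% of the 25932 transcripts tested did not overlap. The 28 and the 14.2% are thus not on the same basis. In 48 of the 73 the leading transcript was at 0 in every library of a group. Whether the single reads, of 50 bases per the sequencing core's table, could tell such transcripts apart was not tested. The estimated counts came from the authors' assembly of reads to transcripts. The FDR given for a transcript is the larger of that of its gene and its own. The 10 genes with the largest change among the well-counted, non-overlapping calls were Orai2, Usp45, Wdr45, Rab6a, Mia2, Rasal3, Ccnd3, Ep400, Ccm2 and Macf1.

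For the 5 of these whose transcript pairs differ at a defined exon, the sequences that tell the transcripts apart are given 5′ to 3′ on the transcript strand, from GENCODE vM21 transcripts on GRCm38. For Mia2 each line is the first differing junction, and for Orai2 the last one, with the upstream exon in capitals. Orai2-202 also differs at junctions further upstream, which are not shown. For Wdr45-201 and Usp45-202 capitals mark the bases that the other transcript skips, and for Wdr45-203 and Usp45-201 they mark the exon after the junction. For Rab6a the whole of exon 4 is given, with the bases that differ between both forms in capitals.
Orai2-201 (chr5:136161710-136170552, minus): GGCTGGACAGTCAGGcctggtccccaccat
Orai2-202 (chr5:136161710-136167839, minus): GACACACAGACACAGcctggtccccaccat
Wdr45-201 (chrX:7727072-7727226, plus): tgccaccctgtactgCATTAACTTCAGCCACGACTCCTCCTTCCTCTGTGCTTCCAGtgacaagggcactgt
Wdr45-203 (chrX:7727072-7727226, plus): tgccaccctgtactgTGACAAGGGCACTGT
Usp45-202 (chr4:21816924-21824431, plus): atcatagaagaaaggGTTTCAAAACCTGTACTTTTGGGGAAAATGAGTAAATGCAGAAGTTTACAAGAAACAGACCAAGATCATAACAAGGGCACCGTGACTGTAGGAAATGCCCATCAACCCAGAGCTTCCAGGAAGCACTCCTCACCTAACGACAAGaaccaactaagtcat
Usp45-201 (chr4:21816924-21824431, plus): atcatagaagaaaggAACCAACTAAGTCAT
Rab6a-201 (chr7:100629838-100629943, plus): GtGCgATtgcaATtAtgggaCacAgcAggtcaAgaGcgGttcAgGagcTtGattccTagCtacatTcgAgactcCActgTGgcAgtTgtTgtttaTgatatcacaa
Rab6a-202 (chr7:100629666-100629771, plus): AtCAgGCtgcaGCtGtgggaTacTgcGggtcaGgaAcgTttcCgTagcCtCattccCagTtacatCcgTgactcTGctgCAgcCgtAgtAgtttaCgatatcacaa
Mia2-202 (chr12:59131590-59136078, plus): GAGCAGCTGCGCTGGgttgtggcagcattg
Mia2-216 (chr12:59129882-59136078, plus): GGTCTGGGTGAGGAGgttgtggcagcattg

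Orai2, which encodes a pore-forming subunit of the store-operated calcium channel, showed the largest change. Orai2-202 held 0% of Orai2 counts in all 5 Ag+Costim libraries and 90.4%, 73.8%, 85.5%, 88.2% and 65.4% in Naive 1 to 5. Orai2-201 took its place, with 92.4%, 93.4%, 93.5%, 92.8% and 94.5% in Ag+Costim and 1.34%, 20.8%, 8.56%, 4.28% and 27.8% in Naive. The shares did not overlap, Naive 5 lay nearest to Ag+Costim, and the change of -80.7 percentage points (FDR 1.09e-05) was called in all 18 alternative fits of usage. The transcripts, on chromosome 5, differ upstream of a shared exon, as the junction sequences show, and have annotated coding lengths of 750 bases (Orai2-201) and 792 bases (Orai2-202). Orai2 itself fell by 1.32 ± 0.31 on the log2 scale (FDR 0.00828).

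Wdr45, an autophagy protein that binds phosphoinositides, lost Wdr45-203, which lacks a stretch of 42 bases in the coding sequence (chromosome X:7727170-7727211). Its share was 0% in all Ag+Costim libraries and 71.9%, 60.5%, 33.0%, 40.7% and 47.6% in Naive (-50.7 percentage points, FDR 0.000994, called in 17 of 18 alternatives). The longer form Wdr45-201, with a coding length of 1080 against 1038 bases, held 59.1% ± 24.5 (SD) in Ag+Costim and 24.6% ± 15.2 in Naive, and its shares overlapped.

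Usp45, a deubiquitinase, lost Usp45-201, which skips a coding exon of 144 bases (chromosome 4:21817501-21817644). Its share was 0% in all Ag+Costim libraries but 90.8%, 20.6%, 81.8%, 2.27% and 97.7% in Naive. The Naive libraries thus spanned nearly the whole range, and the change of -58.6 percentage points (FDR 0.0273) was called in only 8 of 18 alternatives. Usp45-202, which includes the exon, held 89.9% to 96.4% in Ag+Costim and 1.31% to 95.1% in Naive.

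Rab6a, a GTPase of Golgi transport, has alternative forms of exon 4 of 106 bases each that differ at 30 bases and are 71.7% identical, with the same coding length of 624 bases. Rab6a-202 held 1.27%, 0.747%, 0%, 2.1% and 1.44% in Ag+Costim and 26.4%, 37.7%, 10.7%, 57.5% and 37.7% in Naive (-32.9 percentage points, FDR 0.0125, called in 15 of 18 alternatives). Rab6a-201 held the rest, 96.6% to 99.1% in Ag+Costim and 42.2% to 88.7% in Naive. Rab6a as a gene did not pass the test of its level (-0.28 ± 0.16, FDR 0.165).

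Mia2, which acts in export of large cargo from the endoplasmic reticulum, lost Mia2-216, whose first exon lies upstream of that of Mia2-202. Mia2-216 held 0% in all Ag+Costim libraries and 38.1%, 46.7%, 38.3%, 19.5% and 21.2% in Naive (-32.8 percentage points, FDR 0.00949, called in 17 of 18 alternatives). Mia2-202 held 74.1% ± 8.86 (SD) in Ag+Costim and 41.0% ± 5.67 in Naive without overlap, although its own test did not pass. Coding lengths are 2316 bases for Mia2-202 and 2283 bases for Mia2-216.

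Ccnd3, the D-type cyclin of lymphocytes, lost Ccnd3-202, with 0% in all Ag+Costim libraries and 46.1%, 30.6%, 31.2%, 20.9% and 30.1% in Naive (-31.8 percentage points, FDR 0.00143). Ccm2, an adaptor of a kinase pathway at cell junctions, lost Ccm2-202, with 0% against 35.3%, 14.8%, 42.1%, 38.7% and 9.98% (-28.2 percentage points, FDR 4.4e-05), while Ccm2-201 held 97.4% ± 0.94 (SD) in Ag+Costim and 46.0% ± 13.9 in Naive. Macf1, a cytoskeletal linker, lost Macf1-209 (0% to 0.649% against 11.4% to 45.1%, FDR 0.0176).

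Rasal3, a Ras GTPase-activating protein of T cells, gained the coding transcript Rasal3-201, at 49.3%, 16.6%, 58.7%, 16.9% and 34.9% in Ag+Costim and 1.24%, 7.61%, 1.31%, 2.30% and 4.40% in Naive (31.9 percentage points, FDR 0.00601). Its retained-intron transcript Rasal3-209 held 6.05% to 25.7% in Ag+Costim and 31.3% to 38.8% in Naive. Ep400, a chromatin remodeller, gained Ep400-203, but the gain sat in Ag+Costim 2 (80.4%) and 5 (68.5%), with at most 0.942% in the other Ag+Costim libraries and at most 0.170% in Naive (30.1 percentage points, FDR 0.00737).

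**Figure D4:**
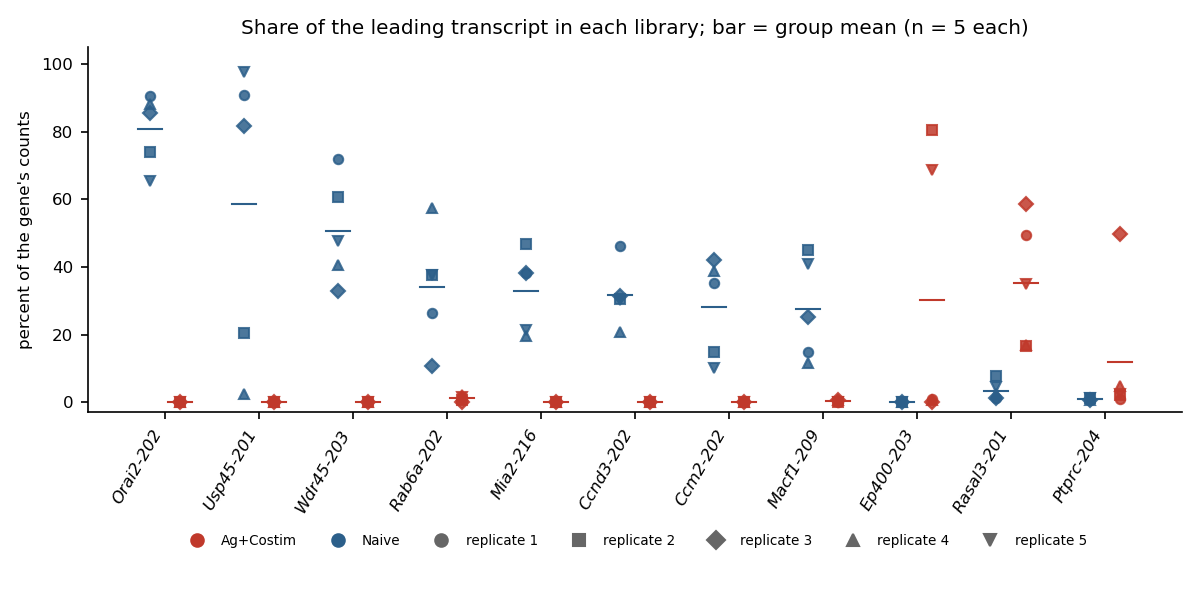
Share of the leading transcript, in percent of the gene's counts, in each library (red Ag+Costim, blue Naive, marker shape the replicate number; bars are means of 5 libraries). Transcripts are ordered from the largest loss to the gains, with Ptprc-204 added last. Orai2-202 is at 0% in all Ag+Costim libraries and at 65.4% to 90.4% in Naive, whereas Ep400-203 and Ptprc-204 rest on 2 and 1 Ag+Costim libraries.

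Of the 15 genes examined for usage whatever their values, Ptprc, which encodes CD45, was called, through Ptprc-204 (FDR 1.09e-05). Its share was 1.03%, 2.11%, 49.6%, 4.88% and 2.42% in Ag+Costim and 0.494%, 1.24%, 0.735%, 0.732% and 1.31% in Naive. The change of 11.1 percentage points rested on Ag+Costim 3, and the groups overlapped. The usage test pools the spread over a gene's transcripts, so its FDR can be small where 1 library carries the change. Foxp1 narrowly missed (Foxp1-211, -14.4 percentage points, FDR 0.0644), and Runx3 had too few tested transcripts. Cd44, Tardbp, Ikzf1, Fyb, Stat4, Mbnl1, Tcf12, Pkm, Lef1, Il7r, Hnrnpll and Bcl2l11 were not called. Tardbp-202 held 27.3%, 19.2%, 12.8%, 21.0% and 19.8% of Tardbp in Ag+Costim and 44.6%, 38.9%, 20.1%, 42.9% and 32.0% in Naive, and the gene's own FDR was 0.256, with none of its transcripts called.

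In 66 of the 73 called genes both the most gained and the most lost transcript changed by at least 10 percentage points, and these pairs were described. In 45 of them (68.2%) both were protein coding, and in 30 of these the coding length differed. The lost transcript was a retained-intron transcript in 10 (15.2%) and one annotated for nonsense-mediated decay in 8 (12.1%), while the gained transcript was of either class in 1 each. Over all 2311 tested genes with such a pair the lost transcript was a retained-intron transcript in 27.3% and the gained one in 4.02%. In the same 2311 the lost transcript was annotated for nonsense-mediated decay in 8.96% and the gained one in 3.5%. Both were protein coding in 48.9% of them. Both were coding with a differing coding length in 31.7%, against 45.45% of the called pairs. The gained transcript was shorter in 54.5% of the called pairs and in 56.2% of all pairs. Of the 73 genes 16 were higher (21.9%) and 27 lower (37.0%) at gene level, against 25.5% and 26.1% of all genes tested for usage, and 30 were not called.

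Over whole libraries, retained-intron transcripts of protein-coding genes held 3.81%, 3.68%, 3.31%, 2.89% and 3.26% of counts in Ag+Costim and 8.91%, 6.56%, 6.42%, 9.10% and 4.08% in Naive. Every Naive library was above every Ag+Costim library, with Naive 5 the nearest. Transcripts annotated for nonsense-mediated decay held 1.70%, 1.61%, 1.57%, 1.47% and 1.53% against 2.65%, 2.09%, 2.98%, 2.48% and 1.62%, where Naive 5 fell inside the Ag+Costim range. Protein-coding transcripts held 94.1% ± 0.49 (SD) in Ag+Costim and 89.4% ± 2.63 in Naive. The Ag+Costim libraries also had the larger share of reads counted in genes, 51.9% to 52.7% against 38.2% to 46.8%, and the part of unspliced or intergenic RNA in these shares was not tested.

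**Figure D5:**
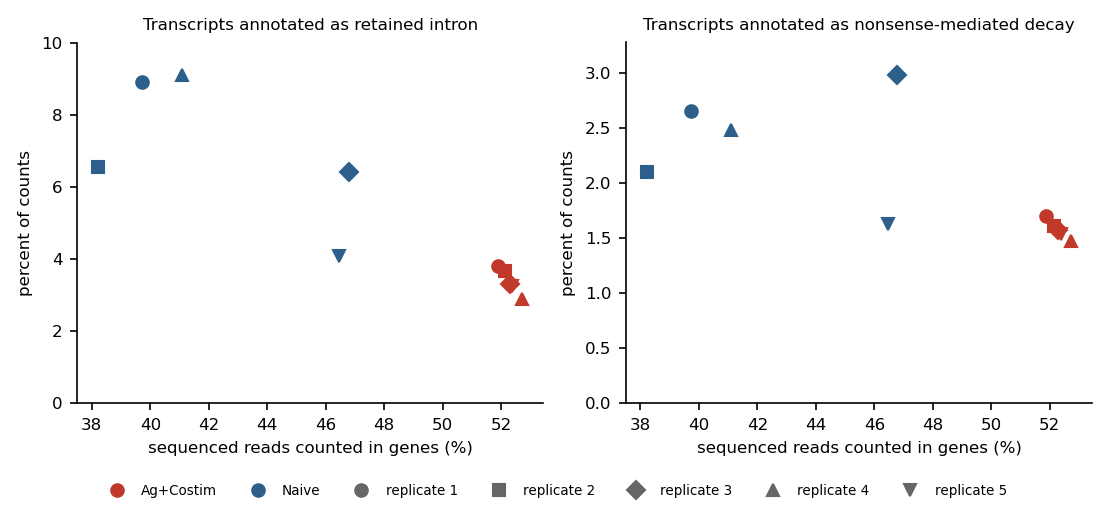
Percent of counts in protein-coding genes held by retained-intron transcripts (left) and by transcripts annotated for nonsense-mediated decay (right), against the percent of sequenced reads counted in genes, for each library (red Ag+Costim, blue Naive, marker shape the replicate number). Ag+Costim libraries cluster at 51.9% to 52.7% of reads counted with 2.89% to 3.81% retained-intron counts, and Naive libraries spread at 38.2% to 46.8% with 4.08% to 9.10%.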

How the data were processed

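RNA-seq libraries were made per the labels and the study's methods with SMART-Seq v4 and Nextera XT from poly(A) RNA and sequenced as single reads. The submitters' processing notes name HISAT2 2.1.0, SAMtools 1.9, StringTie 2.1.0, R 4.0.5 and DESeq2 1.30.1 on mm10. The values used are estimated counts per gene and per transcript, whole numbers deposited by the authors. Of 81881 gene entries 55536 were matched to GENCODE vM21. The 26248 entries named by a number, 0.0818% of counts, and 97 entries without counts were left out. The percent of reads aligned and RiP, a term not spelled out there, were deposited by the authors in the sequencing core's quality table and were not used in any test. The deposited FPKM values were not used here.

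Genes were fitted over all 15 libraries of the series, which share one estimate of the spread, with edgeR 4.0.16 (R 4.3.3; TMM scaling, filterByExpr, quasi-likelihood test, Benjamini-Hochberg adjustment), and Ag+Costim was compared with Naive. The other libraries in the fit were of cells given antigen without the agonist antibodies (Ag). Among them Ag 3 had the lowest total of the series, 4865952 counts, with 16.9% of its reads counted in genes. Its part in the spread was not tested, other than by the fit with the 10 libraries alone. Calls had an FDR under 0.05, and "higher" or "lower" is relative to Naive. CPM are counts relative to the TMM-scaled library total, as edgeR computes them. Intervals after ± on log2 fold changes are approximate standard errors. Each is the absolute log2 fold change divided by the square root of the quasi-likelihood F statistic. For transcript usage, diffSpliceDGE of edgeR was run on the deposited transcript counts, and calls needed a share change of at least 0.1. Scripts were tested on simulated data. Alternatives used DESeq2 1.42.0, limma 3.58.1 diffSplice, other scaling, filters, lane terms, a replicate block and fits without single libraries. Leaving out Naive 2 and 5 together, and requiring shares not to overlap, were chosen after seeing the data.

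The part of the series, its 34 gene lists and 8 marker lists, and the genes named were chosen with earlier results of these data known. Genes named were the 12 highest and 12 lowest non-overlapping protein-coding calls whose higher group averaged 20 CPM or more, up to 4 called members per list and direction, and a fixed set of genes. Transcripts named were the 10 largest non-overlapping usage changes in genes averaging 100 counts or more per group, and 15 fixed genes. Some genes of these sets are not reported here.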

Additional observations from a re-analysis of the deposited data

Results flagged for a closer look

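In groups of 5 libraries, 21 of 222 groups examined (9.46%) had its highest or lowest library separated from the next by over 0.71 of the range of the group, where chance gives about 1 in 20. Of these, 11 were in Naive 5. By summed CPM of a gene list, Naive 5 stood apart for cytokines and chemokines (1330 CPM, nearest 1691), effector transcription factors (2830, nearest 2142), DNA methylation and Polycomb (1940.3, nearest 1157), one-carbon and nucleotide synthesis (4375, nearest 2896), spliceosome core (9402, nearest 7588), splicing regulators (18335, nearest 15060.0) and myeloid markers (1019, nearest 177). By single genes it stood apart for Il7r (237 CPM, nearest 616), Mki67 (334, nearest 104), Lag3 (18.3, nearest 3.08) and Il2rb (1016, nearest 513).

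Ag+Costim 4 stood apart for lymphoid homing (4047 CPM, nearest 4847), cytosolic ribosomal proteins (26334 CPM, nearest 24505), proteasome (14249 CPM, nearest 13201) and nuclear oxidative phosphorylation (21341 CPM, nearest 20155). Ag+Costim 1 had 25410 genes with a count, against 24207 in the nearest library, and Ag+Costim 3 had the lowest Mki67 level of its group (399 CPM, nearest 451). For transcript shares, Ag+Costim 3 stood apart for Ptprc-204 (49.6%, nearest 4.88%) and Foxp1-211 (0.725%, all others 0%), Naive 2 for Hnrnpll-205 (82.5%, all others 0%) and Naive 4 for Bcl2l11-203 (0%, nearest 27.2%).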

How the results depend on the processing

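Against 7755 called genes, 3648 higher, 4107 lower and 4092 with at least a doubling or halving, the counts stayed within 1.5 times under DESeq2, library totals, lane 3 alone and the replicate block. With lane as a term, which is estimated mainly from Ag+Costim as the only group here on both lanes, 943 genes were called (258 higher, 685 lower) and 736 with a doubling or halving. With no filter on low counts 4158 were called (2409 higher, 1749 lower). The fit with the 10 libraries alone called 11285 (4892 higher, 6393 lower). Leaving out 1 library gave 4117 to 9145 called genes, 1524 to 4552 higher, 2593 to 4593 lower and 2248 to 5339 with a doubling or halving. Counts of calls moved by over 1.5 times without Ag+Costim 4 (4909), Naive 1 (4204) or Naive 4 (4117), the higher genes also without Ag+Costim 5 (2400) or Naive 3 (2057), and the lower genes without Ag+Costim 2 (2663). The share of calls that were higher was 47.0%, but 27.4% with a lane term, 57.9% with no filter, and 57.9% without Ag+Costim 2. Of 240 named genes called, 141 passed in every fit without 1 library and 50 in every alternative.

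The 73 usage calls were 132 with the 10 libraries alone, 20 with a lane term, 115 without Naive 2 and 5, 632 with limma, 285 with no filter, 42 at a share change of 0.2, 28 with shares that do not overlap, and 53 to 136 without 1 library, the highest without Naive 5. Differences that changed sign had not passed the test. Tardbp was -0.078 with library totals (0.08 in the report). The Id3 log2 fold change (0.05) was -0.11 with library totals, -0.10 with a lane term, -0.12 within lane 3, and -0.063 to 0.188 without 1 library, below 0 without Ag+Costim 3 (-0.063) or Naive 1 (-0.019). Klrg1 (0.31) was -0.12 with a lane term and within lane 3. Bcl2l11-203 (-5.38 percentage points) was 1.08 within lane 3 and 0.426 without Naive 2 and 5, and the Mbnl1-201 percent of the gene (7.07 points) was -10.8 within lane 3. The cause of these changes was not tested.

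Deviations of same-numbered libraries correlated at -0.21 to 0.191, and not every library correlated best with its own number, so pairing by replicate number was not shown. These few libraries cannot exclude it, and same-numbered libraries shared a recorded sex. With the replicate block 7833 genes were called (4066 higher, 3767 lower; 4178 with a doubling or halving), and 69 genes for usage, of which 42 were among the 73. Of the 92 usage calls within lane 3, 24 were among the 73, and of the 632 with limma, 30 were.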
